A study of Mus musculus with 10 samples.

Results

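GABAergic interneurons are the inhibitory neurons of the forebrain, and 10 genes of their specification, transmitter synthesis and peptide output were followed here through peak lists of 4 histone marks. The genes are Dlx1, Dlx2, Dlx5, Dlx6, Lhx6, Npas1, Gad1, Gad2, Sst and Npy, 10 of 21887 protein-coding genes. They were taken as a given list, and the list was drawn up with results of these same data in view: the H3K4me3 peaks at Lhx6 and Npas1 and the H3K27ac peak at Npy, each listed after crotonate only, were known beforehand. Every difference between treatments at these genes is therefore a description, and none was tested. For each gene, all peaks that touched the gene body plus 5 kb either side (RefSeq, GRCm38) were taken.

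The chromatin came from neural stem and progenitor cells of E13.5 (embryonic day) mouse forebrain, passaged in medium that held 20 ng/ml of both EGF and FGF. The crotonate group received 10 mM crotonate, a short-chain fatty acid and precursor for histone crotonylation, and the control group received water, each for 24 h. Chromatin was immunoprecipitated without crosslinking against H3K4me3, H3K9cr (crotonylation), H3K27ac and H3K27me3, with 1 library per mark and treatment and 1 input per treatment, which was not used here. The labels name no strain, sex or number of embryos, and they give different antibody vendors for the treatments in H3K4me3 and H3K27me3 under the same catalogue numbers, and a vendor in control only for H3K9cr and H3K27ac, which cannot be told apart from the treatment. With 1 library per group there is no replicate check, and the intervals given cover counting error only.

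In the developing ventral forebrain, Dlx homeodomain factors act in progenitors of the ganglionic eminences, Lhx6 acts in the interneurons that leave the medial eminence, and the Gad enzymes make the transmitter GABA. Somatostatin and neuropeptide Y are peptides of subsets of mature interneurons. H3K4me3, H3K9cr and H3K27ac mark active gene starts and H3K27ac also enhancers, whereas H3K27me3 is set by Polycomb complexes and covers silent developmental genes. A start with both H3K4me3 and H3K27me3 peaks is called bivalent here. The libraries are separate and come from whole cultures, so they do not show both marks in the same cells, and a mark in fewer cells cannot be told apart from less of it per cell.

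The H3K4me3 lists held 18001 peaks after crotonate and 17322 in control, the H3K9cr lists 32666 and 31905, the H3K27ac lists 59868 and 52922, and the H3K27me3 lists 34707 and 26031. The summit pileup, the height of stacked fragments at the top of a peak, is the authors' value. It is not scaled between libraries and read depth is unknown, so pileups are set side by side and no change is read from them. The same holds for fold enrichments, which are ratios to the local background of each library. The median H3K4me3 pileup was 374 against 423 in control, that of H3K9cr 41 against 74, that of H3K27ac 17 against 23, and that of H3K27me3 15 against 16. The start regions of 7 of 7 progenitor markers, Sox2, Nes, Pax6, Vim, Fabp7, Hes1 and Hes5, carried H3K4me3, H3K9cr and H3K27ac in both treatments, and 2 of them, Pax6 and Hes1, carried H3K27me3 as well. Of 3 microglia and blood markers, 0 carried any of the 4 marks, and of 3 endothelial markers 0 carried H3K4me3. Among these 3, Cldn5 carried H3K27me3 in both treatments and H3K9cr in control, and Cdh5 carried H3K27ac after crotonate. Of 5 neuron markers 4 carried H3K4me3 in each treatment. H3K27ac lay at 1 after crotonate and 3 in control, with Tubb3 and Syp in control only. H3K27me3 lay at 1 and 3, with other genes, Dcx and Snap25, in control only. H3K4me3 lay at 1 of 3 astrocyte and 1 of 3 oligodendrocyte markers in each treatment, and so did H3K27me3. The astrocyte markers differed, Aldh1l1 with H3K4me3 and Gfap with H3K27me3, whereas the oligodendrocyte marker Mbp had both. H3K27ac lay at 1 astrocyte marker after crotonate and 2 in control, with Gfap in control only, and at 2 oligodendrocyte markers in each treatment. The defining markers of the labelled cells thus carried the marks of active starts, and the part of the neuron markers in the results was not tested.

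All 10 interneuron genes carried H3K27me3 within 1 kb of the gene start in both treatments. H3K4me3 lay at the start of 9 after crotonate and 7 in control, and H3K9cr likewise at 9 and 7. H3K27ac was sparse, at 3 starts after crotonate and 2 in control. Over all 21887 genes, H3K27me3 lay at the start of 18.7% after crotonate and 20.9% in control, H3K4me3 at 61.9% and 60.6%, H3K9cr at 63.1% and 61.9%, and H3K27ac at 57.9% and 57.8%. The genes with a start peak after crotonate only were Lhx6 and Npas1 for both H3K4me3 and H3K9cr (2 of 10) and Npy for H3K27ac (1 of 10). Lhx6, Npas1 and Npy were listed for peaks known beforehand, and the Dlx windows overlap in pairs. No interval is therefore put on these counts. No member had a start peak in control only, for any of the 4 marks, and no rate is read from this.

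Over all 21887 genes, the share with a start peak after crotonate only was 1.46% (H3K4me3), 1.72% (H3K9cr), 1.83% (H3K27ac) and 1.72% (H3K27me3). The share with a start peak in control only was 0.174%, 0.466%, 1.72% and 3.88% for the same marks in that order. Since Lhx6, Npas1 and Npy were on the list because of these changes, nothing is read from the members' counts against these shares. Over the wider windows, 9 members had H3K4me3 in each treatment, 9 after crotonate and 8 in control had H3K9cr, 5 and 4 had H3K27ac, and 10 and 10 had H3K27me3. Over all genes the windows held H3K4me3 in 68.1% after crotonate and 66.8% in control, H3K9cr in 70.5% and 69.3%, H3K27ac in 68.5% and 67.7%, and H3K27me3 in 34.7% and 33.8%. Peaks of a neighbouring gene account for part of this: Npas1 shares its window with the peaks at Tmem160, which is why it counts as having H3K4me3, H3K9cr and H3K27ac in control. Over all genes the windows gave peaks after crotonate only in 1.59%, 1.83%, 2.51% and 4.75%, and in control only in 0.256%, 0.64%, 1.72% and 3.84%, in the order H3K4me3, H3K9cr, H3K27ac, H3K27me3.

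**Figure D1:**
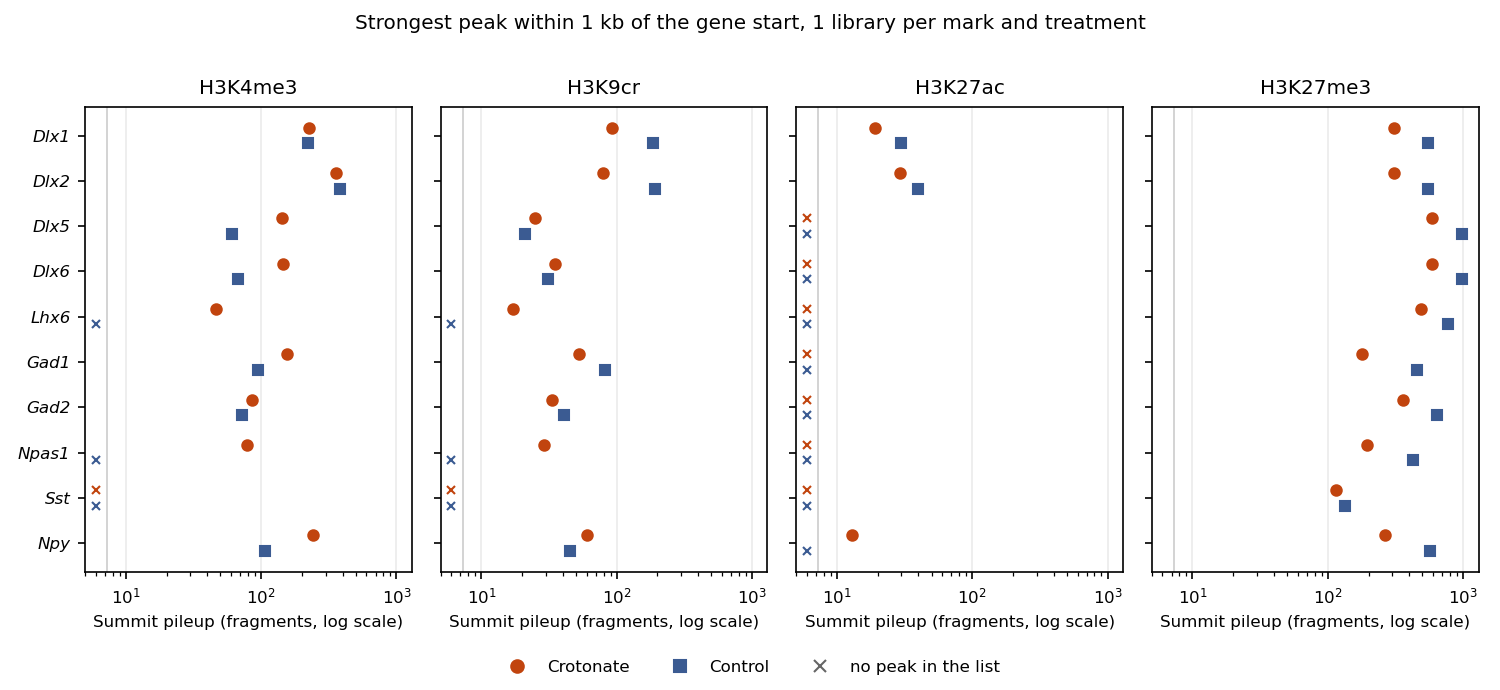
Summit pileup (fragments, log scale) of the strongest peak within 1 kb of the start of each member, for each mark, in the crotonate library (circles) and the control library (squares); crosses mark genes with no such peak in the list. A peak had to reach within 1 kb of the start, and its summit can lie farther away. H3K27me3 peaks were present at all 10 starts in both treatments, while Lhx6 and Npas1 had H3K4me3 and H3K9cr peaks after crotonate only.

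The promoters are shown because the results turn on which of them carry H3K4me3. Each line gives 250 bases before to 50 bases after an annotated start, 5′ to 3′ on the strand of the gene (RefSeq, GRCm38.p6), with every CpG dinucleotide in capitals. Npas1 (chr7:16476731-16477030, minus strand) and the most upstream Lhx6 start (chr2:36105359-36105658, minus strand) had H3K4me3 after crotonate only. Npy (chr6:49822460-49822759, plus strand) had H3K27ac after crotonate only, Gad1 (chr2:70561879-70562178, plus strand) was bivalent in both treatments, and Sst (chr16:23890795-23891094, minus strand) had H3K27me3 as its only mark.
Npas1: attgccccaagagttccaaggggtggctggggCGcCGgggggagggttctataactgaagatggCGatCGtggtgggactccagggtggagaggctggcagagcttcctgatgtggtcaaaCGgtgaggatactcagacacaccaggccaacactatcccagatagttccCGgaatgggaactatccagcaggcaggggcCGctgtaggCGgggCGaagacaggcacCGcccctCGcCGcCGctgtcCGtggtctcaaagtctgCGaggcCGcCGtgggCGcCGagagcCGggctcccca
Lhx6: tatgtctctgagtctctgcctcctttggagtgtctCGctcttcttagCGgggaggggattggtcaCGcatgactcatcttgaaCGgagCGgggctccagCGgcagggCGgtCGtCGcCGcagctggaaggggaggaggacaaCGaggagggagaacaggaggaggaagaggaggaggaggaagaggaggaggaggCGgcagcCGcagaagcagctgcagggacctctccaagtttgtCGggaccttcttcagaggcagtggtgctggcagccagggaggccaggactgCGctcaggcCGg
Npy: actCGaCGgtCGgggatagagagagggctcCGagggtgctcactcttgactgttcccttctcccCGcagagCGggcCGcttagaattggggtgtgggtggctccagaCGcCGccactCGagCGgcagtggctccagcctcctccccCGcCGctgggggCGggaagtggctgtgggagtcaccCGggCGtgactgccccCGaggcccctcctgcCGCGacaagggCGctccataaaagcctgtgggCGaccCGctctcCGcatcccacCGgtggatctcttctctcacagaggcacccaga
Gad1: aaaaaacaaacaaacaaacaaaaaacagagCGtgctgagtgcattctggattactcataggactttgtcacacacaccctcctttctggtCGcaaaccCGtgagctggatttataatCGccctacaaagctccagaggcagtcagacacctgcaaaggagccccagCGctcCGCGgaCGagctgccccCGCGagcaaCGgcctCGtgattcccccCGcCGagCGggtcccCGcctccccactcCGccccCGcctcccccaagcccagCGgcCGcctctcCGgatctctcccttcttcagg
Sst: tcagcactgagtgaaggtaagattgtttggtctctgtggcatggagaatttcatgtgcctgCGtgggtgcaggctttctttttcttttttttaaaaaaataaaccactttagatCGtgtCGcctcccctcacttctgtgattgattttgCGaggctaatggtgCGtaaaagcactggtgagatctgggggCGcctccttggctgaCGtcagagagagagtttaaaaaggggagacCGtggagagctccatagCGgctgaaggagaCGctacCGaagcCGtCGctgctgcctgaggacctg

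The CpG content of the members' promoters ran from near the middle to the upper part of all promoters. The RefSeq promoter table matched 8 of the 10 genes, with 10 promoters in all, and the CpG ratio is the number of CpG dinucleotides over the number its C and G content would give. It was 0.655 for Npas1, 0.579 for the printed Lhx6 promoter, 0.693 for Npy, 0.849 for Gad1 and 0.707 for Sst, against a median of 0.567 over 21263 promoters of protein-coding genes. The other Lhx6 promoters had ratios of 0.791 and 0.643, and the crotonate H3K4me3 peak lay within 1 kb of their starts too. Dlx2 had the highest ratio of the members (0.898, percentile 82.6 of all promoters) and Gad2 the lowest (0.543, percentile 48.3). Promoters with H3K27me3 in both treatments and H3K4me3 after crotonate only numbered 192, with a median ratio of 0.559 (quartiles 0.386 and 0.705). Those with both marks in both treatments numbered 2423 (median 0.713), and those with H3K27me3 and no H3K4me3 in either numbered 601 (median 0.341). Sst, with no H3K4me3, had a ratio of 0.707 and so lay above the upper quartile (0.493) of the promoters whose marks it shared. Some promoters of a gene overlap, so these are descriptions of sequence and not independent points.

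**Figure D2:**
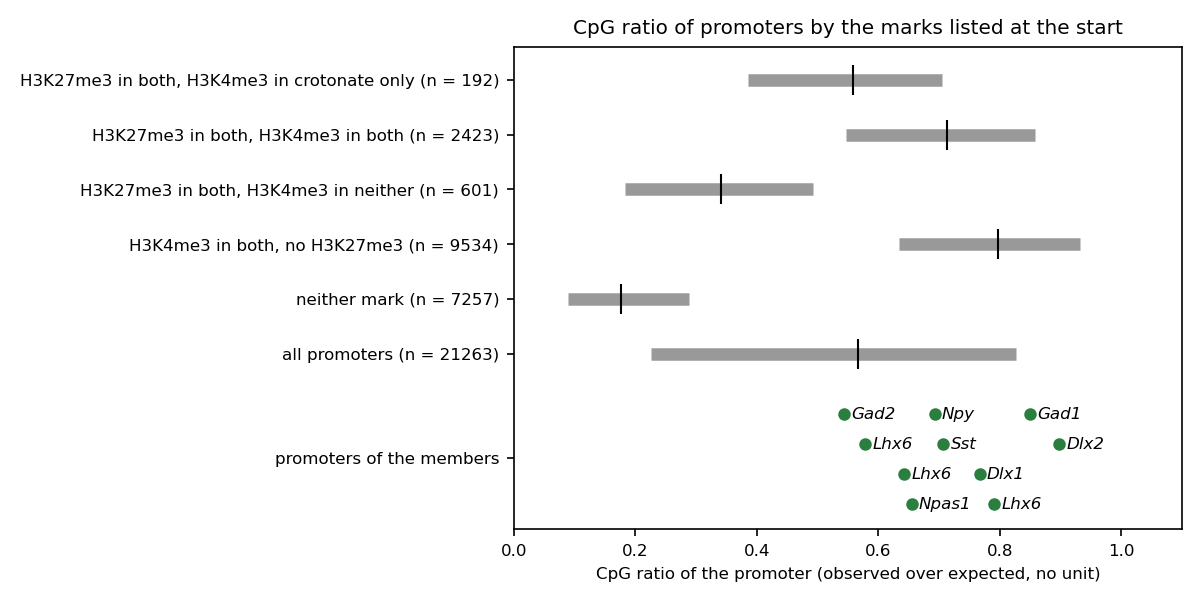
CpG ratio (observed over expected CpG, no unit) of promoters grouped by the marks within 1 kb of their start; grey bars run from the lower to the upper quartile and black ticks are medians. Green points are the 10 promoters of 8 members (3 of Lhx6), which lie between 0.543 and 0.898.

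A few letter patterns were counted on both strands of these promoters. The GC box GGGCGG was in 7 of the 10 promoters, namely those of Dlx1, Dlx2, Gad1, Npas1, Npy and 2 of Lhx6, and in 46.2% of all promoters. The cAMP response element TGACGTCA, through which the somatostatin gene is known to respond to cyclic AMP, was found once, in Sst, beginning 48 bases before the start, and is in 2.23% of all promoters. TATAAA was in the Gad1 promoter and in 1 Lhx6 promoter (12.6% of all promoters), and the homeodomain core TAATTA was in 0 of the 10 (4.53% of all). The E-box CANNTG was in 5 of the 10 promoters, of Dlx2, Lhx6, Gad1, Gad2 and Sst, and in 69.0% of all. A match is a description of the letters and not a site.

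Npas1 encodes a basic helix-loop-helix PAS factor of interneurons. At its start, on chromosome 7 from 16475440 to 16476844, the crotonate list held an H3K4me3 peak of 1405 bp with a pileup of 79 and 20.7-fold enrichment, and the control list held none. An H3K9cr peak of 1168 bp, with a pileup of 29 and 7.13-fold enrichment, lay on it after crotonate, and none was listed in control. Both summits lay 106 bases downstream of the start. The weakest peak that the control lists held had a pileup of 10 for H3K4me3 and 11 for H3K9cr. The H3K27me3 domain around it was 10189 bp long after crotonate (pileup 196) and 10248 bp in control (pileup 424), and it covered the whole H3K4me3 peak. No H3K27ac peak lay at the Npas1 start in either treatment.

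Lhx6, a LIM homeodomain factor of interneurons from the medial eminence, has 3 annotated starts close to each other. The crotonate list held an H3K4me3 peak over the most upstream of them (chromosome 2, 36104571 to 36105645, pileup 46, 12.1-fold) and an H3K9cr peak of 665 bp with a pileup of 17. In control neither mark was listed there. A second H3K4me3 peak, inside the gene far downstream of the starts, was listed in both treatments, with a pileup of 77 after crotonate and 38 in control. An H3K9cr peak of 308 bp lay on it after crotonate only (pileup 15). The H3K27me3 domain spanned 27883 bp after crotonate (pileup 490) and 26410 bp in control (pileup 771). Beyond its downstream edge the window held 4 smaller H3K27me3 peaks after crotonate and 2 in control. The neighbouring gene Morn5 reaches into the window and overlaps some of these smaller peaks in both treatments.

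These gains can be placed among all genes. H3K4me3 was listed at the start after crotonate only in 319 genes, with a median crotonate pileup of 22. Of the 964 genes with H3K27me3 and no H3K4me3 at the start in control, 23.3% had H3K4me3 after crotonate, and Lhx6, Npas1 and Sst are the members in that class. Of the 207 genes that gained H3K4me3 at the start and had no H3K9cr there in control, 62.3% had H3K9cr after crotonate, as Lhx6 and Npas1 did. Since both genes were listed for these peaks, the shares are background only. Both genes' peaks lay in the weaker part of the crotonate lists: by -log10 q-value the H3K4me3 peak was at percentile 24.6 for Npas1 and 17.9 for Lhx6, and neither was listed when only the stronger 50% of each list was used.

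The peptide genes carried different sets of marks. Npy, for neuropeptide Y, had H3K4me3 at its start in both treatments, 1359 bp wide with a pileup of 242 and 62.7-fold enrichment after crotonate, and 1061 bp wide with a pileup of 107 and 20.4-fold enrichment in control. H3K9cr was there too, with a pileup of 60 after crotonate and 45 in control. A narrow H3K27ac peak of 288 bp was listed after crotonate only, just upstream of the start (chromosome 6, 49822414 to 49822701), with a pileup of 13 and 3.81-fold enrichment. The H3K27ac peak's -log10 q-value of 4.08 put it at percentile 27.6 of its list, and when only peaks with a -log10 q-value of at least 5 were used it was no longer listed. The main H3K27me3 domain of Npy was 6982 bp long after crotonate (pileup 264, 72.2-fold) and 6511 bp in control (pileup 567, 147-fold).

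Sst, for somatostatin, had no peak of H3K4me3, H3K9cr or H3K27ac in its window in either treatment. Its only mark was H3K27me3, in a peak of 4711 bp after crotonate (pileup 115) and 4340 bp in control (pileup 133), the lowest pileups of that mark among the members in each list. The nearest H3K4me3 peak lay 6.68 kb from the gene after crotonate (pileup 33) and 6.69 kb in control (pileup 54), outside the window. Peaks nearest the window limit were weak: the farthest one inside was an H3K27me3 peak 4.85 kb from Npy after crotonate (pileup 14), and the nearest one outside an H3K27me3 peak 5.04 kb from Npas1 in control (pileup 13).

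The Gad genes encode the glutamate decarboxylases. Gad1 was bivalent in both treatments, with an H3K4me3 peak of 2973 bp and a pileup of 154 after crotonate, and 3024 bp and 95 in control. Its H3K9cr peak had a pileup of 53 after crotonate and 82 in control, and its H3K27me3 domain spanned 14294 bp (pileup 179) and 14628 bp (pileup 458). A second, weak pair of H3K4me3 and H3K9cr peaks lay about 6 kb inside Gad1 in both treatments, with H3K4me3 pileups of 19 after crotonate and 18 in control. The lncRNA gene Gad1os overlaps the Gad1 start, and its peaks cannot be told apart from those of Gad1.

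Gad2 had H3K4me3 with a pileup of 85 after crotonate and 72 in control, and H3K9cr with 33 and 41. Its H3K27me3 domain was 11699 bp long after crotonate (pileup 357) and 11660 bp in control (pileup 640). Neither Gad gene had H3K27ac at its start. The only H3K27ac in either window was a peak deep inside Gad2, more than 57 kb from the start, with a pileup of 15 after crotonate and 14 in control.

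The Dlx genes lie in convergent pairs that share regulatory elements between them. The windows of Dlx1 and Dlx2 overlap, and those of Dlx5 and Dlx6 too, so their peaks are partly the same. For Dlx5 and Dlx6, both annotated ends took the place of the start. Dlx1 and Dlx2 were the members with all 3 active marks at the start in both treatments. H3K4me3 at the Dlx2 start had a pileup of 358 after crotonate and 382 in control, and at the Dlx1 start 225 and 221. H3K9cr had 79 and 192 at Dlx2, and 92 and 185 at Dlx1. H3K27ac had 29 and 40 at Dlx2, and 19 and 30 at Dlx1.

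A single H3K27me3 domain ran across both Dlx1 and Dlx2, 25471 bp long after crotonate (pileup 311) and 24674 bp in control (pileup 551). Its upper edge lay at 71546593 on chromosome 2 after crotonate and at 71547341 in control, so the Dlx2 start at 71546754 was inside the domain in control and just outside it after crotonate. Accordingly, 82.4% of the Dlx2 H3K4me3 peak lay within H3K27me3 after crotonate, against all of it in control. At the other 8 members with H3K4me3 after crotonate, the start peak lay wholly within H3K27me3 in every treatment in which it was listed.

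Between Dlx1 and Dlx2, small H3K4me3 and H3K9cr peaks stood away from the starts. An H3K4me3 peak beginning at 71537557 after crotonate had a pileup of 19, and its partner in control 18. A second H3K4me3 peak, from 71541089 to 71541372, was listed after crotonate only, with a pileup of 14. H3K9cr covered that place in both treatments, with a pileup of 15 after crotonate and 23 in control. The antisense gene Dlx1as overlaps the first of these places, and no H3K27ac peak lay between the genes.

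Dlx5 and Dlx6 sat in the strongest and longest H3K27me3 domain among the members, 44937 bp after crotonate (pileup 590) and 45094 bp in control (pileup 973). By -log10 q-value the domain was at percentile 99.95 of the crotonate list and 99.96 of the control list. H3K4me3 at Dlx5 was 1587 bp wide with a pileup of 143 after crotonate, and 840 bp wide with 61 in control. At Dlx6 it was 1978 bp wide with 146 after crotonate, and 1929 bp wide with 68 in control. A weaker H3K4me3 peak about 2 kb before the lower end of Dlx6 was 1329 bp wide after crotonate (pileup 27) and 473 bp wide in control (pileup 15). H3K9cr had a pileup of 25 after crotonate and 21 in control at Dlx5, and 35 and 31 at Dlx6. H3K27ac was listed at neither gene in either treatment. The lncRNA genes Dlx6os1 and Dlx6os2 overlap Dlx6 and share its peaks.

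**Figure D3:**
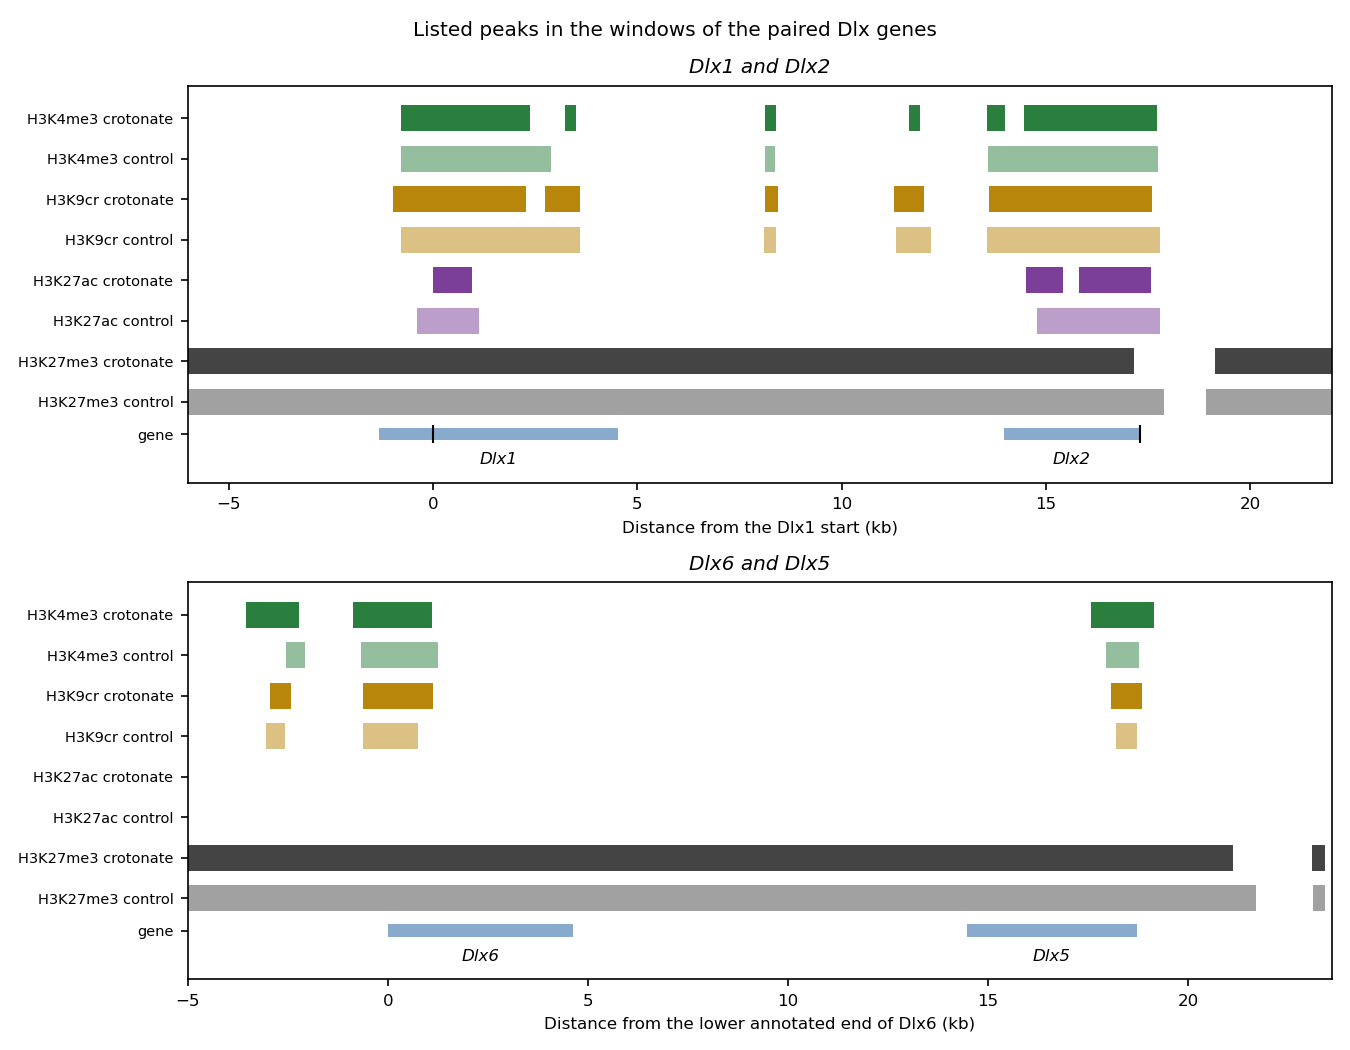
Extent of every listed peak in the windows of Dlx1 with Dlx2 (top, distance in kb from the Dlx1 start) and of Dlx6 with Dlx5 (bottom, distance in kb from the lower annotated end of Dlx6); each row is a library, crotonate (dark) above control (light) for each mark, and blue bars are genes. H3K27ac bars stand only at Dlx1 and Dlx2, and a H3K27me3 domain covers most of each panel in both treatments.

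Within each list the members could be ranked. By H3K4me3 pileup at the start the order after crotonate was Dlx2, Npy, Dlx1, Gad1, Dlx6, Dlx5, Gad2, Npas1 and Lhx6, and in control Dlx2, Dlx1, Npy, Gad1, Gad2, Dlx6 and Dlx5. Npy thus stood above Dlx1, and Dlx5 and Dlx6 above Gad2, after crotonate and below them in control. These start peaks lay in the lower part of both lists by -log10 q-value, from percentile 17.9 to 49.0 after crotonate and 20.8 to 47.6 in control. The H3K27me3 peaks at the starts lay near the top of both, from percentile 96.8 to 99.95 after crotonate and 94.4 to 99.96 in control. The order by H3K27me3 pileup began with Dlx5 and Dlx6, Lhx6 and Gad2 and ended with Sst in each list.

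The length covered by each mark was compared too. In the 8 separate windows of the 10 genes, 284665 bp in all, H3K4me3 covered 24183 bp after crotonate and 19780 bp in control, a ratio of 1.22, against 1.06 over the windows of all genes. H3K9cr covered 22054 and 19626 bp (1.12, against 0.973). H3K27ac covered 4781 and 6305 bp (0.758, against 0.897). H3K27me3 covered 135637 and 129516 bp (1.05, against 1.04). Lhx6, Npas1 and Npy were listed for peaks known beforehand, so nothing is read from these ratios against all genes. In the 5 windows of the other 7 genes the ratio was 1.09 for H3K4me3 (17964 bp after crotonate and 16551 bp in control), 0.997 for H3K9cr (17419 and 17481 bp), 0.799 for H3K27ac (3931 and 4920 bp) and 0.992 for H3K27me3 (84858 and 85573 bp), so the excess of H3K9cr and H3K27me3 after crotonate lay at those 3 genes.

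By gene, H3K4me3 covered more of the window after crotonate at Dlx5, Dlx6, Lhx6, Gad2, Npas1 and Npy, by 254 to 1352 bp, and less at Dlx1, Dlx2 and Gad1, with differences (crotonate minus control) of -244, -169 and -80 bp. At Dlx2 a single control peak was listed as 2 peaks with a gap after crotonate, so its difference depends on how peaks were split. The sign for H3K9cr was the same at each of these 9 genes, and at 58.9% of the 14805 genes with a difference in both marks. Lhx6, Npas1 and Npy were listed for peaks known beforehand, and the Dlx windows overlap in pairs. Nothing is read from the 9 genes against that share. Over all genes with H3K4me3 in either treatment, 69.6% had more of it after crotonate and 30.1% less, and for H3K9cr 53.0% and 46.8%. H3K27ac covered less at 4 of the 5 members that had it, Npy being the exception, and at Npas1 it lay at Tmem160. Over all genes 31.4% had more H3K27ac and 68.5% less. H3K27me3 covered more at 5 members, less at 3 and the same at 2, with the largest difference at Lhx6, 30770 bp after crotonate against 25855 bp in control. Part of the Lhx6 difference lay over the neighbouring gene Morn5, which reaches into that window. Over all genes the H3K27me3 shares were 50.6% more and 47.9% less.

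Counted as peaks, 4 of 17 crotonate H3K4me3 peaks in the windows had no control partner, against 0 of 12 control peaks without a crotonate partner. The 4 were the start peaks of Npas1 and Lhx6 and the weak peaks at Dlx1 (pileup 11) and between Dlx1 and Dlx2 (pileup 14). Over the whole lists these shares were 6.88% and 2.81%. For H3K9cr the members had 3 of 16 and 0 of 12 (whole lists 15.3% and 15.1%), for H3K27ac 1 of 6 and 1 of 5 (30.1% and 25.3%), and for H3K27me3 6 of 22 and 1 of 17 (45.2% and 26.4%). The H3K27me3 peaks without a partner were weak, with pileups of 10 to 17, and lay beyond the edges of the main domains at Lhx6, Npas1 and Npy. In the windows of the other 7 genes, 2 of 12 crotonate and 0 of 9 control H3K4me3 peaks had no partner, and for H3K9cr, H3K27ac and H3K27me3 there were 0 in either treatment. As Lhx6, Npas1 and Npy were listed for such peaks, nothing is read from the 10-gene counts against the whole lists.

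The H3K27me3 peaks of the members were among the stronger ones. The lowest control pileup at a member start was 133, and 1294 of the 4570 genes with H3K27me3 at the start in control (28.3%) were at least that high. Of those 1294 genes, 0.541% had no H3K27me3 at the start after crotonate, whereas of all 4570 genes 18.6% had none. Bivalent starts numbered 9 of 10 members after crotonate and 7 in control, and over all genes 14.1% after crotonate and 16.2% in control. Over all genes 1.45% were bivalent after crotonate only and 3.62% in control only. Lhx6 and Npas1 were the members bivalent after crotonate only, and both were listed for their H3K4me3 peaks. Nothing is read from the members' bivalent counts against these shares. Of the 7 members bivalent in control 0 had ceased to be so after crotonate, and of the 3555 such genes overall 22.3% had. Those 3555 genes include ones with weaker H3K27me3 than any member, so nothing is read from the 0 of 7.

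Other genes of the interneuron pathway were read at their starts in lists of transporters and enzymes of GABA, ganglionic eminence factors, postmitotic factors, subtype markers, migration signals and the remaining Dlx genes, 58 genes in all. H3K4me3 was listed at 50 after crotonate and 46 in control, with 4 after crotonate only and 0 in control only. Over all genes the H3K4me3 shares were 61.9% and 60.6%, with 1.46% after crotonate only and 0.174% in control only. The lists were chosen with earlier results known, so nothing is read from their counts against these shares. The 4 were Lhx8, a LIM homeodomain factor of cholinergic and other ventral neurons (pileup 50), Dlx3 (24), Lamp5 (21) and Calb2, for the calcium-binding protein calretinin (17), and each had H3K27me3 in both treatments. H3K27ac was listed at 37 of the 58 after crotonate and 35 in control, beside 3 and 2 of the 10 members. Over all genes it was listed at 57.9% and 57.8%.

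H3K27me3 was listed at 39 of the 58 after crotonate and 47 in control, with 0 after crotonate only and 8 in control only. Over all genes, 18.6% of the 4570 with H3K27me3 at the start in control had none there after crotonate. Nothing particular to the 58 genes is read from the 8. Among the 8 were Olig2, an eminence progenitor factor, Maf, a postmitotic factor, Erbb4 and Cxcr4, receptors in migration, and Aldh5a1, an enzyme of GABA breakdown. The control H3K27me3 pileups of these 5 genes ran from 15 at Aldh5a1 to 58 at Erbb4, below the 133 of Sst, and each of the 5 had H3K4me3 and H3K27ac at the start in both treatments. Among 17 subtype markers H3K27me3 was listed at 13 in each treatment. Nkx2-1, which specifies the medial eminence, had H3K27me3 in both treatments (pileup 414 after crotonate and 622 in control) and had H3K27ac in control only.

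A list of 13 excitatory cortical neuron genes was read the same way. H3K27me3 was listed at 11 after crotonate and 12 in control, where Bcl11b, a zinc finger factor of deep-layer neurons, had it in control only (pileup 27). H3K4me3 was listed at 11 and 10, and H3K27ac at 2 and 1. H3K9cr was listed at 8 and 9, with Neurog1 having it in control only. Tbr1, a T-box factor of cortical projection neurons, had H3K4me3 after crotonate only, with a pileup of 19. None of these differences between lists was tested.

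**Figure D4:**
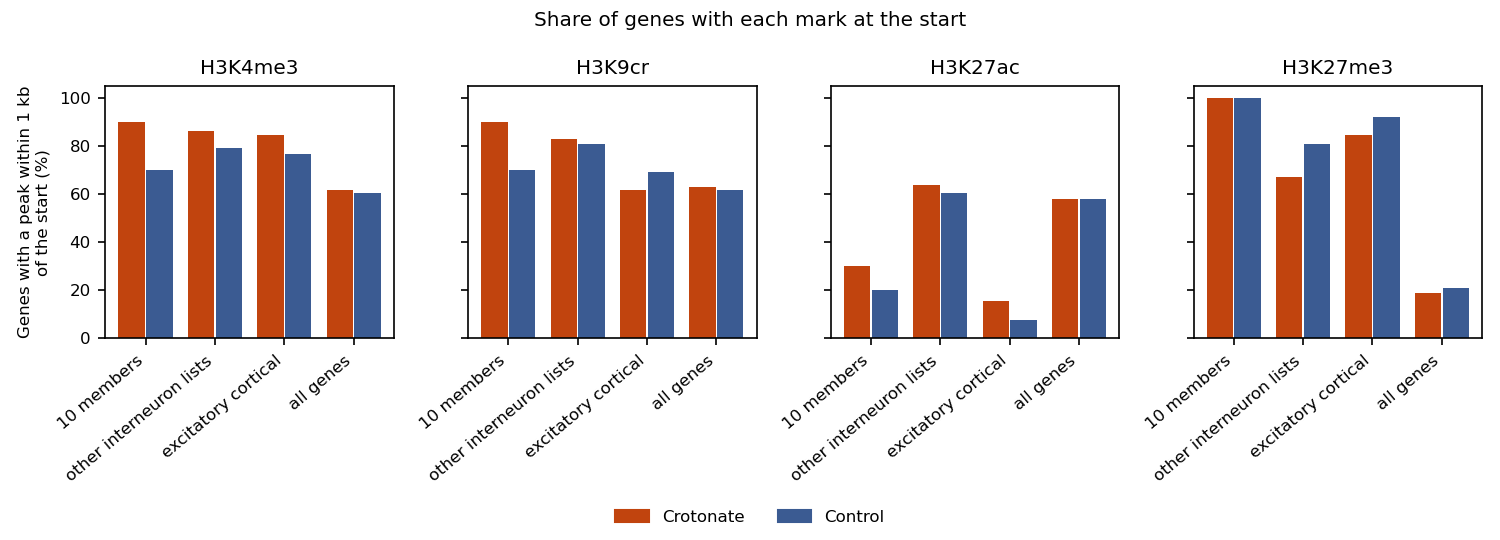
Percentage of genes with a peak of each mark within 1 kb of the start, crotonate bars left of control bars, for the 10 members, the 58 genes of the other interneuron lists, 13 excitatory cortical neuron genes and all 21887 protein-coding genes. H3K27me3 marks all 10 members in both treatments, and H3K27ac marks 3 of them after crotonate and 2 in control.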

How the data were processed

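Peak lists of 8 immunoprecipitated libraries were used, and groups were taken from the labels. The submitters' processing notes name Bowtie2 2.4.1, MACS2 2.2.7.1 and build GRCm38. How peaks were called, with which settings and inputs, is not given in the sources used. In the deposited lists the pileup is a coverage signal, the fold enrichment is its ratio to the local background, and significance is a -log10 p-value with a -log10 q-value, per the file headers. All are the authors' own and serve only to describe, rank or filter peaks within a list.

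A peak belonged to a window by at least 1 bp, and was shared when at least 1 bp overlapped a peak of the same mark in the other treatment. A mark was at a start when a peak lay within 1 kb. Starts came from the RefSeq promoter table for 17492 of 21887 genes, and both annotated ends were used for the other 4395. Intervals are exact (Clopper-Pearson, 95%) and served only to judge recomputed counts of genes. The stand-in for depth, the lowest background implied by any peak, was 2.87 after crotonate and 2.91 in control (H3K4me3), 3.21 and 3.74 (H3K9cr), 2.68 and 3.11 (H3K27ac), and 2.67 and 2.69 (H3K27me3). All 10 members are named. In the other lists, genes with a start peak of H3K4me3 or H3K27me3 in 1 treatment only are named, except some that are not reported here. Nkx2-1 and Neurog1 were named after their values were seen. The members and lists were chosen with earlier results of these data known. Overlaps were computed in Python 3.11.15 with pandas 2.3.3 and scipy 1.17.1, and the functions were tested on simulated data.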

Additional observations from a re-analysis of the deposited data

How the results depend on the processing

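Of 186 recomputed values, 144 stayed within the 95% interval of the reported count of genes, or within 1.5 times the reported count of peaks or length, and 2 changed sign. With 10 genes these intervals are wide, so the 144 is a lenient count. For example, H3K27ac in the windows of 5 members after crotonate counted as unchanged at 3 in gene bodies alone. Lhx6 and Npas1 kept H3K4me3 and H3K9cr peaks after crotonate only with start windows of 500 bp and 2 kb, with equal numbers of peaks and with -log10 q of at least 5. With the stronger 50% of each list, 1 member, Npas1 through Tmem160, had H3K4me3 in its window in each treatment, no start peak of H3K4me3 was listed after crotonate only, and Npy was the gene with H3K9cr at its start after crotonate only. H3K9cr was then in the windows of 5 members after crotonate and 4 in control. With windows of 10 kb, 10 members had H3K4me3 in each treatment and 10 had H3K9cr after crotonate.

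Crotonate peaks without a control partner were 2 for H3K4me3 with peaks within 3 kb merged, with -log10 q of at least 5 or with equal numbers. For H3K27ac they were 2 when 50% of both peaks had to overlap and 0 in gene bodies alone. For H3K27me3 they were 11 with 50% overlap and with 10 kb windows, 3 when peaks within 1 kb counted as shared, 1 with equal numbers and 0 with merged peaks. Control peaks without a crotonate partner were 1 for H3K4me3 and 6 for H3K27me3 with 50% overlap, and 1 for H3K9cr with -log10 q of at least 5. They were 0 for H3K27me3 within 1 kb or merged, and 0 for H3K27ac within 1 kb, merged, in gene bodies alone or with -log10 q of at least 5. In gene bodies alone, the difference in covered length (crotonate minus control) was 2578 bp for H3K4me3, -774 bp for H3K27ac and 2691 bp for H3K27me3, which was 13531 bp with 10 kb windows. With peaks within 3 kb merged it was 7313 bp for H3K4me3 and 13305 bp for H3K27me3. Without Lhx6, Npas1 and Npy it changed sign for H3K9cr (-62 bp) and H3K27me3 (-715 bp) and was 1413 bp for H3K4me3 and -989 bp for H3K27ac. Without these 3 genes, crotonate peaks lacking a control partner were 2 for H3K4me3 and 0 for H3K9cr, H3K27ac and H3K27me3, and control peaks lacking a crotonate partner 0 for H3K27ac and H3K27me3. Other causes were not tested. Leaving out these genes, merging peaks for covered length and using both annotated ends for every gene were chosen after seeing the data. No paired analysis was possible because each group has 1 library, and none could be left out. Unknown depth limits what an absent peak shows.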
